A study of Mus musculus with 6 samples.

Results

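The genes described here carry glucose from uptake to lactate and into and out of glycogen. They were 34 genes chosen by symbol from knowledge of the pathway: the glucose transporter Slc2a1, the glycolytic enzymes and their isoforms, the lactate transporters, the pyruvate dehydrogenase kinases, the bifunctional regulators of phosphofructokinase and the enzymes of glycogen turnover. Of these, 33 matched a gene among the 12389 in the per-library table, all 33 passed the filter on low values, and Pygl was not analysed here. The cells were primary smooth muscle cells grown out of explants of mouse thoracic aorta, in serum-containing DMEM, untreated, at passage 6 or below. There were 3 cultures from wild-type mice (WT) and 3 from mice with a smooth muscle-specific knockout of LRRC8A (KO), which every volume-regulated anion channel needs to form. The labels name no Cre driver, strain, sex or age, and since their genotype entry is wild type in all 6 samples, the groups rest on the titles. The stated interest of the study includes metabolism and hypoxia signalling in these cells.

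Glycolysis splits glucose into pyruvate with a small yield of ATP, and lactate dehydrogenase reduces pyruvate to lactate, which leaves the cell through monocarboxylate transporters together with a proton. Pyruvate dehydrogenase kinases limit the flow of pyruvate into the citric acid cycle by inhibiting pyruvate dehydrogenase, and many of these genes are known targets of hypoxia-inducible factors. Vascular smooth muscle is known for high lactate production even when oxygen is plentiful, and it keeps a store of glycogen.

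Values are scaled reads, that is, estimated reads divided by a factor for each library, as deposited, and sets of 3 values are in the order of replicates 1, 2 and 3. Pairs are WT and KO libraries with the same replicate number, and the labels state no pairing. Estimated totals ran from 31.03 to 47.9 M reads per library. Lrrc8a had 1221 to 2578 scaled reads in WT and 506 to 868 in KO, so the groups did not overlap and KO cultures still held Lrrc8a transcripts. Of 8 smooth muscle markers 6 were measured, and Des and Myocd were not analysed here. The 6 summed to 16520, 25282 and 205102 scaled reads in WT cultures and to 31498, 32534 and 106017 in KO cultures. The groups overlapped for each of the 6. In limma 4 of them had a log2 fold change (KO over WT) below 0, and 2, Acta2 and Tagln, above. In all 3 pairs 3 were lower in KO. Of these, Myh11 had 90.1, 152 and 1656 in WT and 41.7, 20.8 and 96.8 in KO. Lmod1 had 365, 613 and 2574 in WT and 332, 17.3 and 538 in KO. The 4 epithelial and mesothelial markers with values out of 7 summed to 5350 to 9801 in WT and 1098 to 5766 in KO, with Krt18 at 0 in KO replicate 3 but Krt19 higher in KO in all 3 pairs (1151, 440 and 146 in WT, 2140, 554 and 701 in KO). The 3 leukocyte markers of 6 summed to 1233 to 1594 in WT and 392 to 1197 in KO, and the 5 fibroblast markers to 18011 to 31215 and 16870 to 40166. Of endothelial, adipocyte and striated muscle markers 1 gene each had values, and Pecam1, Cdh5, Adipoq and Myod1 were not analysed here. The part of these markers in the results was not tested, and in bulk RNA fewer cells of a type and less RNA per cell cannot be told apart.

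Per kilobase of longest transcript, the same 8 genes led in the same order in both groups: Pkm, Aldoa, Tpi1, Ldha, Pgam1, Eno1, Gpi1 and Pgk1. These levels take each gene's own row only. Near-identical copies, described below, were left out, and the Gapdh row held 14.2% of its sum with them. Pkm, which encodes the pyruvate kinase that makes pyruvate and ATP, stood first at 28644 ± 3861 scaled reads per kilobase in WT and Aldoa, the main aldolase, followed at 12681 ± 1713 (SD, n = 3 each). Tpi1 (7429 ± 1591), Ldha (6755 ± 2533), Pgam1 (6075 ± 1170) and Eno1 (5334 ± 1807) each lay within 1 SD of the next of these 4, per kilobase in WT. At the other end stood Slc16a3 with 146 ± 197, Ppp1r3c with 74.6 ± 36.8 and Aldoc with 48.9 ± 70.9 scaled reads per kilobase in WT. Ppp1r3c ranked 32 of 33 in WT and 24 in KO, and Ldhb 12 in WT and 20 in KO.

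**Figure D1:**
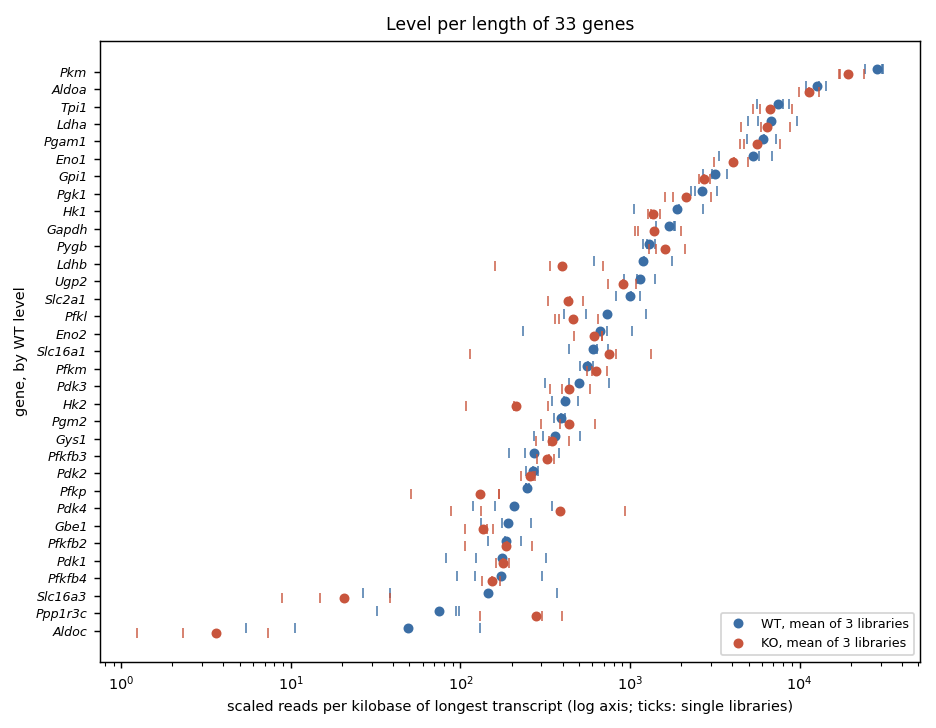
Scaled reads per kilobase of the longest transcript (x axis, log scale) for 33 genes ordered by WT level (y axis). Dots are means of 3 libraries and ticks single libraries, blue for WT and red for KO. Near-identical copies of the genes are left out. Pkm leads in both groups, and Aldoc and Slc16a3 have the 2 lowest KO means.

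Between genotypes, glucose entry and several glycolytic genes had lower values in KO cultures, and the glycogen-targeting gene Ppp1r3c had higher ones, but no gene passed the test. In limma, 25 of 33 members had a log2 fold change (KO over WT) below 0, against 49.6% of all genes tested, and their median was -0.16, against 0.00 for all 12363 genes. By same-numbered pair the members' median was -0.45, -0.09 and -0.14 in replicates 1, 2 and 3. None of the 33 passed at an adjusted p under 0.05 in limma, where the background was 0% of genes, and the smallest adjusted p among them was 0.996. An unadjusted p under 0.05 was found for 5 members (background 3.62%), 4 of them lower (2.15%) and 1 higher (1.46%). With the replicate number as a block it was found for 7 (7.42%), and 0 were called (0%). The groups did not overlap for 5 members (background 8.43%): the KO libraries lay wholly below for Slc2a1, Hk2, Pfkp and Pkm (4 members, background 4.51%) and wholly above for Ppp1r3c (1 member, background 3.91%). All 3 pairs were below 0 for 11 members (background 15%) and above 0 for 1 (background 15.7%). By the authors' deposited table Slc2a1 alone of the 33 had an FDR under 0.05 (background 0.525%). The median SE of a member was 0.33 on the log2 scale, and a p that missed the threshold does not show that a gene's level was the same in both genotypes.

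**Figure D2:**
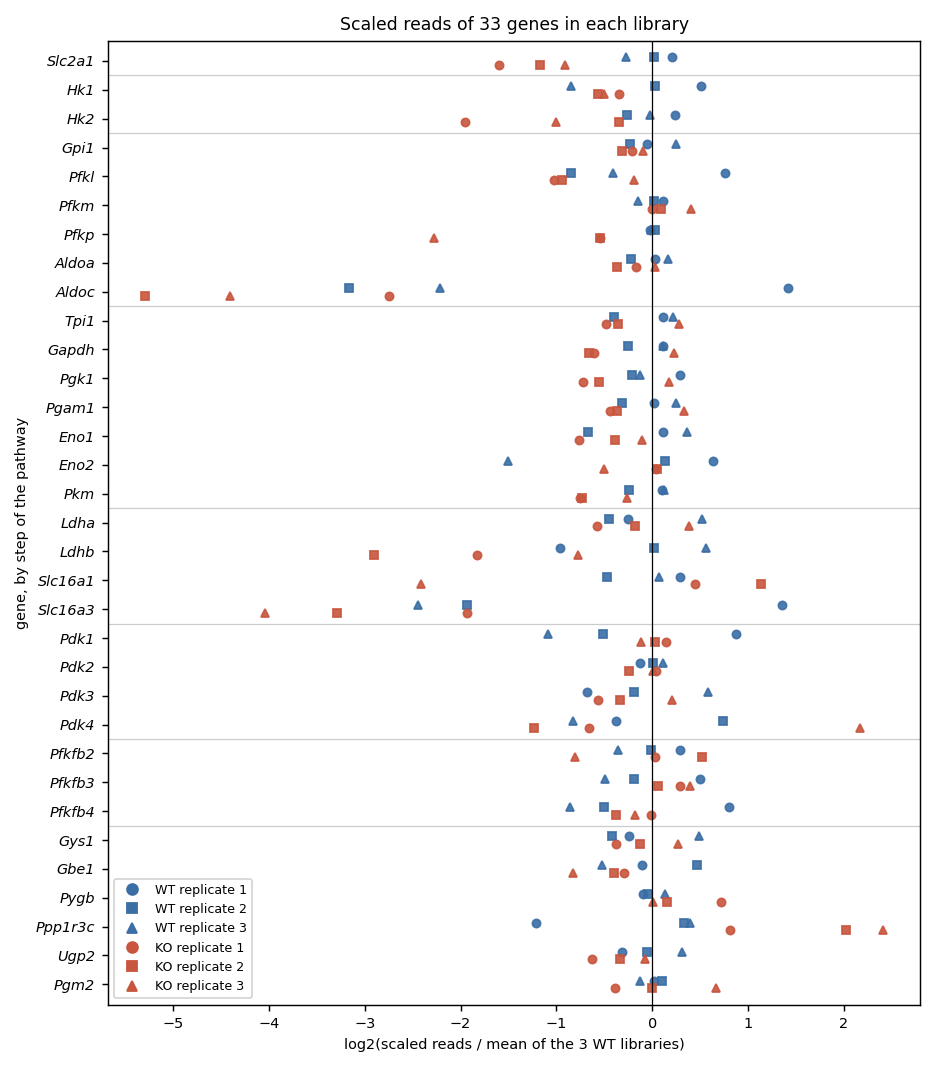
Scaled reads of each gene in each library as log2 of the ratio to the mean of the 3 WT libraries (x axis), by step of the pathway (y axis, steps divided by grey lines); blue is WT, red KO, and the marker shape gives the replicate. Slc2a1, Hk2, Pfkp and Pkm have all 3 KO points to the left of the WT points, and Ppp1r3c has them to the right.

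**Figure D3:**
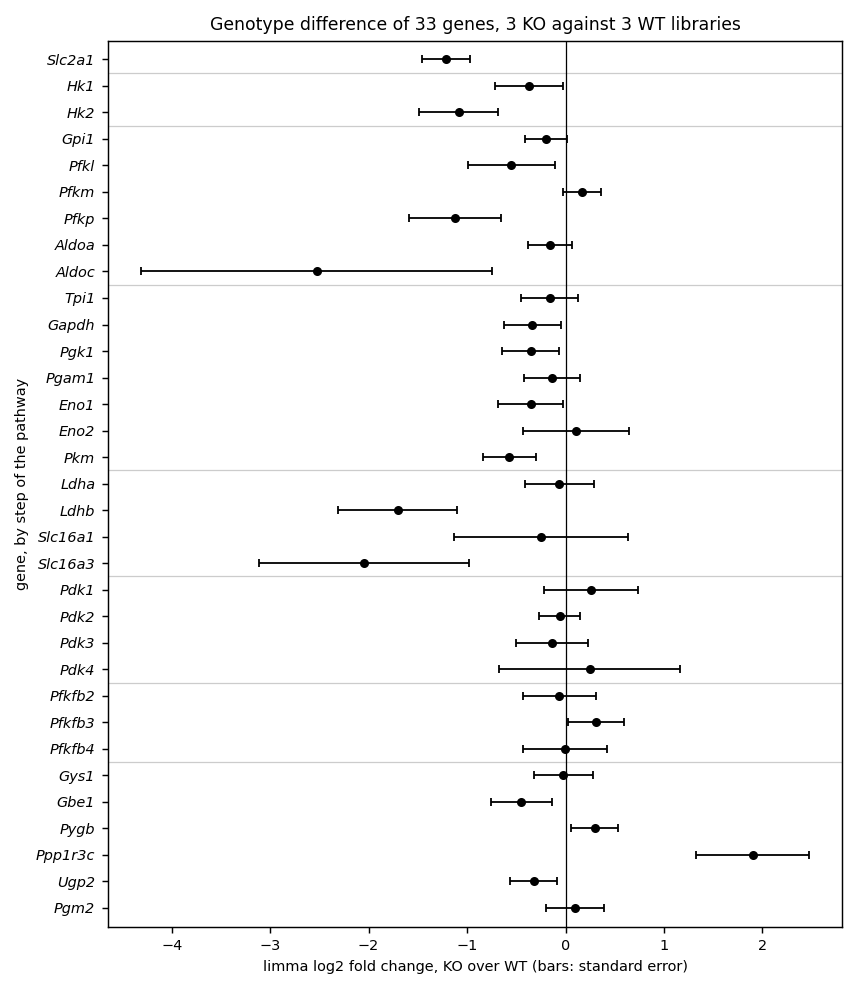
limma log2 fold change, KO over WT (x axis), of the 33 genes by step (y axis); bars are standard errors. Values lie below 0 for 25 genes, from -2.53 for Aldoc, and Ppp1r3c stands alone at 1.90.

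As examples, the 250 bases before the RefSeq start site (GRCm38.p6) are given 5′ to 3′ on the gene's strand for Slc2a1 (chr4:119108495-119108744, plus), Ldha (chr7:46845554-46845803, plus), Ldhb (chr6:142507958-142508207, minus), Slc16a3 (chr11:120948817-120949066, plus) and Ppp1r3c (chr19:36736605-36736854, minus). Capitals mark ACGTG or GCGTG on either strand, the core of the hypoxia response element. Hk2, Pfkp and Pkm, whose groups also did not overlap, are not shown. Every window shown holds a match, and that of Pkm holds 0.
Slc2a1: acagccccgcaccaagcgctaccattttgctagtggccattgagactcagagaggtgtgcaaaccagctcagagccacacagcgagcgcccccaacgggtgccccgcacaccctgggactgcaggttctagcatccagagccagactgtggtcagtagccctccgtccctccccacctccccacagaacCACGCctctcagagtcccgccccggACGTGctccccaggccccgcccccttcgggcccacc
Ldha: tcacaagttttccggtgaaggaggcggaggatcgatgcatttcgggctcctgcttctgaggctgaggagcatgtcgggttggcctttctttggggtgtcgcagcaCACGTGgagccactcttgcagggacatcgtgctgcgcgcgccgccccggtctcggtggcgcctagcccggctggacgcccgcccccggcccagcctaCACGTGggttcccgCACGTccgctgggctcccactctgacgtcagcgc
Ldhb: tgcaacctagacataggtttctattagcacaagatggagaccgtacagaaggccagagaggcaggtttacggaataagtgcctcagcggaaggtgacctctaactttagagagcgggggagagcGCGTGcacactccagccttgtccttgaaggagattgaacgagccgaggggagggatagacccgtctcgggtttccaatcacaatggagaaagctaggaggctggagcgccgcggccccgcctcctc
Slc16a3: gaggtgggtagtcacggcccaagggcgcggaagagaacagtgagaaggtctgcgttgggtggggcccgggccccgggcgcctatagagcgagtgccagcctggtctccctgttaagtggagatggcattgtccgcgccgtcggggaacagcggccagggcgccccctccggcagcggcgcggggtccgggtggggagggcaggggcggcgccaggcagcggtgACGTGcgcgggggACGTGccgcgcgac
Ppp1r3c: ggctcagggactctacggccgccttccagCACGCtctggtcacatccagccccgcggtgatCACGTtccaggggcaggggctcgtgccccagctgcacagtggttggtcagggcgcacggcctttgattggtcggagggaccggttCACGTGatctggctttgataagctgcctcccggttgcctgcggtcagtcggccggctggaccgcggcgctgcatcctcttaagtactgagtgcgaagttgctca

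There were 5 core matches before Ldha and 1 before Ldhb; each CACGTG counts as 2, since it reads ACGTG on both strands. The core, in either form and on either strand, was found in 25 of 33 member windows and in 38.6% of 32817 RefSeq windows of the same 250 bases. The A form was in 16 windows (16.6% of all), the G form in 17 (28.1% of all) and the E-box CACGTG, which holds the A form, in 7 (6.02% of all). The sets differ, since each member gave only the window nearest its annotated principal start. The background held every distinct RefSeq window, alternative starts included. It was not matched to the members for expression or base composition, so these shares do not test enrichment. Among the members whose groups did not overlap there were 2 matches for Slc2a1, 2 for Hk2, 3 for Pfkp, 0 for Pkm and 4 for Ppp1r3c, so windows with and without the core were found among them. A match is a run of letters and not a shown binding site.

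Glucose entry was represented by a single gene, whose values were lower in every KO culture. Slc2a1 (ENSMUSG00000028645, chromosome 4, 119108711 to 119137983, plus strand) encodes GLUT1, the basal glucose transporter of most cells. It had 3747, 3287 and 2690 scaled reads in the WT cultures and 1071, 1437 and 1722 in the KO cultures. Every KO library lay below every WT library, and the KO mean was 43.5% of the WT mean. The limma log2 fold change was -1.21 (SE 0.24, adjusted p = 0.996), and the difference by pair was -1.81, -1.19 and -0.64. In the authors' deposited table Slc2a1 had a log2 ratio of -1.20 at an FDR of 0.0112. With library quality weights it passed in limma at an adjusted p of 0.045, but adding the replicate block gave an adjusted p of 0.119.

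Hexokinases trap glucose by phosphorylation; Hk1 is the broadly expressed form and Hk2 the form induced by insulin and hypoxia in muscle. Hk2 (ENSMUSG00000000628, chromosome 6, 82725025 to 82774454, minus strand) had 2711, 1908 and 2259 scaled reads in WT and 590, 1806 and 1141 in KO. The groups were parted narrowly, since KO replicate 2 lay just under WT replicate 2, and the log2 fold change was -1.09 (SE 0.40, limma adjusted p = 0.999) and -0.66 without KO replicate 1. Hk1 had 11541, 8265 and 4512 in WT and 6396, 5477 and 5698 in KO, and there the WT libraries alone spanned more than the KO libraries. Per kilobase Hk2 made up 15.4%, 15.2% and 28.0% of the pair in WT and 6.68%, 20.4% and 13.4% in KO, so Hk1 dominated in all 6 cultures. The log2 ratio of Hk2 to Hk1 differed by -0.72 between genotypes with overlapping groups (exact two-sided permutation p = 0.4).

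Of 6 genes of the hexose phosphate steps, 5 were below 0 (background 49.6%) and 1, Pfkp, had groups that did not overlap (background 8.43%). Phosphofructokinase commits sugar to glycolysis and has liver (Pfkl), muscle (Pfkm) and platelet (Pfkp) subunits. Pfkp (ENSMUSG00000021196, chromosome 13, 6579768 to 6648777, minus strand) had 2107, 2193 and 2128 scaled reads in WT (SD 45.1) and 1468, 1464 and 442 in KO. KO replicate 3 stood far below the other 2 KO libraries, and without it the log2 fold change moved from -1.12 (SE 0.47) to -0.55. Pfkl had 4646, 1522 and 2062 in WT and 1352, 1431 and 2400 in KO. WT replicate 1 held the highest Pfkl value, at 1.94 times the next library, and without it the log2 fold change went from -0.55 to -0.09.

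Pfkm had 1452 to 1733 scaled reads in WT and 1606 to 2118 in KO (log2 fold change 0.17, SE 0.20). Its share of phosphofructokinase reads per kilobase was 28.8%, 46.1% and 38.7% in WT and 51.2%, 51.9% and 51.4% in KO. These shares did not overlap, although the log2 ratio of Pfkm to Pfkl did (difference 0.72, exact two-sided permutation p = 0.2). Gpi1, which converts glucose 6-phosphate to fructose 6-phosphate, had -0.19 (SE 0.21) and Aldoa -0.16 (SE 0.23), and both were lower in KO in all 3 pairs. Aldoc, the brain-type aldolase, was near the floor in most cultures, at an estimated 307, 13 and 37 reads in WT and 19, 3 and 9 in KO. Its log2 fold change of -2.53 (SE 1.78) was -1.20 without WT replicate 1.

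In the triose phosphate steps, which yield the ATP and NADH of the pathway, 6 of 7 genes were below 0 (background 49.6%). Pkm alone of the 7 had groups that did not overlap (background 8.43%). Pkm (ENSMUSG00000032294, chromosome 9, 59656368 to 59679375, plus strand) had 74558, 58838 and 75594 scaled reads in WT and 41278, 41934 and 58141 in KO. The gap between the groups was small, from 58141 in KO replicate 3 to 58838 in WT replicate 2, and the KO mean was 67.6% of the WT mean. As a share of each library's total, the Pkm groups overlapped, with 0.170% in KO replicate 3 and 0.162% in WT replicate 2. The log2 fold change was -0.57 (SE 0.27, limma adjusted p = 0.999), with -0.85, -0.49 and -0.38 by pair. The gene-level values do not part the M1 and M2 splice forms of Pkm.

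For Gapdh, Pgk1 and Pgam1, KO replicates 1 and 2 lay below all WT cultures while KO replicate 3 was the highest or second highest of all 6; for Tpi1 KO replicate 3 was highest and KO replicate 2 lay above WT replicate 2. Pgk1, the phosphoglycerate kinase, had 5931, 4168 and 4421 in WT and 2931, 3285 and 5464 in KO. Gapdh, glyceraldehyde phosphate dehydrogenase, had 6035, 4680 and 6010 in WT and 3656, 3538 and 6530 in KO. Log2 fold changes were -0.16 for Tpi1, -0.34 for Gapdh, -0.35 for Pgk1, -0.14 for Pgam1 and -0.35 for Eno1, with SEs of 0.28 to 0.33. Without KO replicate 3, the KO libraries lay below the WT libraries for 10 members rather than 4, with Gapdh, Pgk1, Pgam1, Pfkl, Ldhb and Ugp2 added, where the background was 10.5%. The members' median log2 fold change was then -0.35. The count was 8 without WT replicate 2 (background 7.38%) and 7 without WT replicate 3 (background 11.3%). It was 6 without WT replicate 1 (background 9.79%), 6 without KO replicate 1 (9.02%) and 4 without KO replicate 2 (7.69%). Members with the KO libraries wholly above, 1 in the full set, numbered 3 without KO replicate 3 (background 8.98%). They numbered 4 without WT replicate 1 (8.68%) and 2 without WT replicate 3 (12%). The number stayed at 1 without WT replicate 2 (6.88%), KO replicate 1 (8.38%) or KO replicate 2 (7.23%).

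KO replicate 3 was also the highest library for all 8 proliferation markers, such as Mki67 and Top2a. They summed to 5175, 10310 and 22307 in WT and to 5292, 19052 and 37019 in KO; its part in these values was not tested. Eno2, the neuronal-type enolase, had another order, at 2875, 2031 and 654 in WT and 1903, 1921 and 1306 in KO, with WT replicate 3 lowest (log2 fold change 0.11, SE 0.54). Its share of enolase reads per kilobase was 3.29% in WT replicate 3 and 8.61% to 17.8% in the other 5 libraries.

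Several of these genes have processed copies elsewhere in the genome to which reads can be assigned, so their single values are uncertain. Near-identical copies with values of their own were found for 7 members, 27 copies in all. Gapdh had 18, and its own row held 14.2% of the reads summed over the gene and its copies. The predicted gene Gm7336 alone had 28176, 23484 and 34446 scaled reads in WT and 18461, 20184 and 36879 in KO, above Gapdh in every library. Eno1 held 35.9% of its sum, beside Eno1b and Gm4735, and Pgk1 held 31.2%, beside Gm5537, Pgk1-rs7 and Gm7466. Pgam1, Gpi1, Ldhb and Pkm held 71.1%, 76.2%, 89.4% and 89.0%.

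With the copies added in, a step chosen after the values were seen, each of these fold changes kept its direction. The log2 fold change was then -0.26 for Gapdh, -0.36 for Eno1, -0.35 for Pgk1, -0.12 for Pgam1, -0.19 for Gpi1, -1.72 for Ldhb and -0.57 for Pkm. The order of levels per kilobase did depend on it, since the summed Gapdh mean of 35696 scaled reads over all libraries stands against 5075 for its own row.

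**Figure D4:**
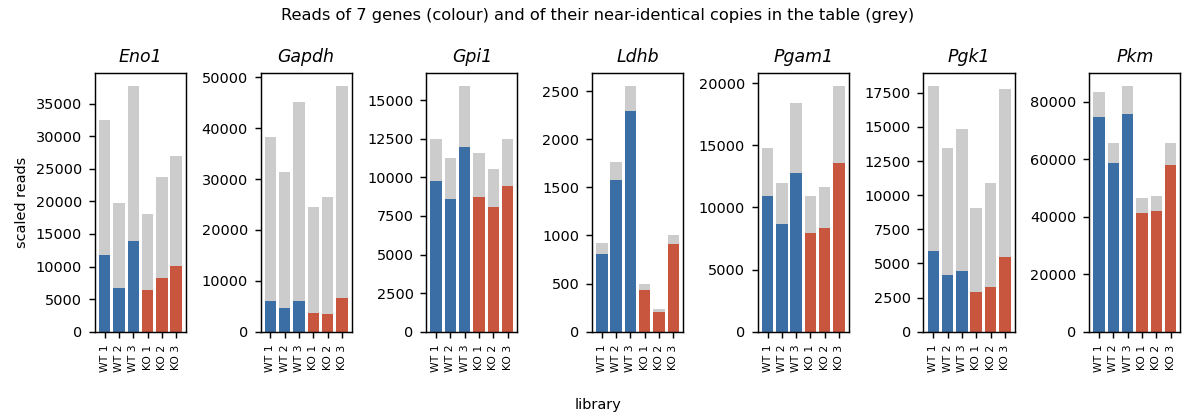
Scaled reads (y axis, linear from 0, scaled per panel) in each library (x axis) for the 7 genes with near-identical copies; colour is the gene's own row (blue WT, red KO) and grey the sum of its copies. For Gapdh most of each bar is grey, and for Ldhb and Pkm most is coloured.

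At the lactate step the more abundant dehydrogenase gene had similar means in both genotypes and the less abundant one a lower mean in KO, but neither passed the test. Ldha, whose subunit favours lactate formation, had 10298, 8970 and 17514 scaled reads in WT and 8224, 10819 and 15943 in KO (log2 fold change -0.06, SE 0.35). Ldhb (ENSMUSG00000030246, chromosome 6, 142490249 to 142507957, minus strand), whose subunit favours pyruvate formation, had 803, 1581 and 2295 in WT and 438, 208 and 909 in KO. The Ldhb groups overlapped, since KO replicate 3 lay above WT replicate 1, and the KO mean was 33.2% of the WT mean. The log2 fold change was -1.71 (SE 0.61, limma adjusted p = 0.999), with -0.87, -2.91 and -1.33 by pair.

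Set against Ldha within each library, Ldhb was lower in every KO culture than in any WT culture. Per kilobase it made up 9.79%, 19.7% and 15.4% of the pair in WT and 6.91%, 2.61% and 7.35% in KO. The log2 ratio of Ldhb to Ldha was -3.68, -2.50 and -2.93 in WT and -4.22, -5.69 and -4.13 in KO, a difference of -1.64. The two-sided exact permutation p was 0.1, the smallest that 3 against 3 allow, and 0.733 after Benjamini-Hochberg adjustment over 11 ratios. It was the only ratio of the 11 whose groups did not overlap in the full set of 6 libraries.

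**Figure D5:**
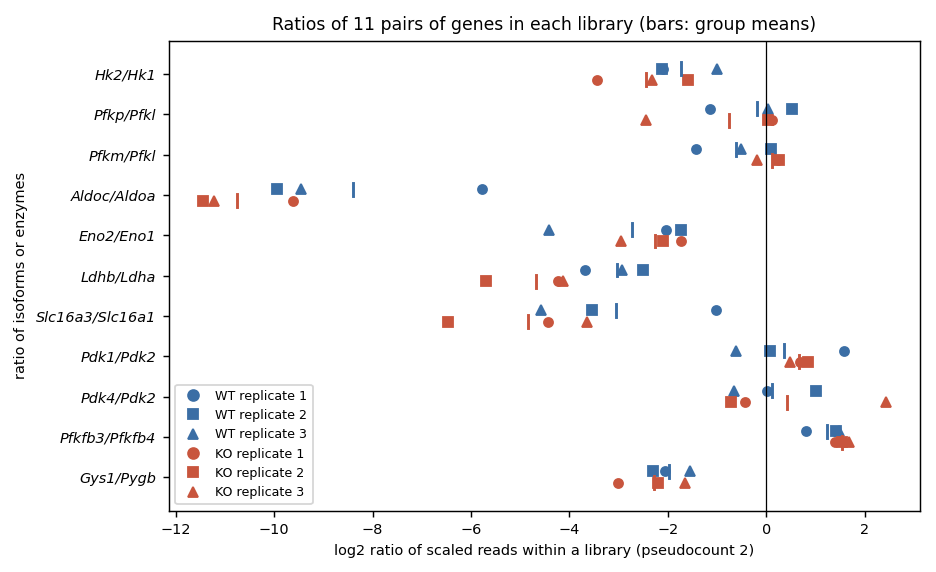
Log2 ratio of scaled reads of 2 genes within a library (x axis) for 11 pairs (y axis); points are libraries, blue WT and red KO, with the replicate by shape, and short bars are group means. For Ldhb/Ldha the 3 KO points, from -5.69 to -4.13, lie left of the 3 WT points, from -3.68 to -2.50.

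The lactate transporters varied widely between cultures of the same genotype. Slc16a3 encodes MCT4, the low-affinity exporter of glycolytic cells, and had 1618, 166 and 116 scaled reads in WT and 166, 64.7 and 38.4 in KO. WT replicate 1 was 9.76 times the next library, WT replicate 2 and KO replicate 1 differed by less than 1 scaled read, and the log2 fold change of -2.05 (SE 1.07) moved to -0.87 without WT replicate 1. Slc16a1 encodes MCT1, which carries lactate either way, and had 3280, 1939 and 2827 in WT and 3647, 5876 and 502 in KO. Here 2 KO libraries were the highest of the 6 and KO replicate 3 the lowest, and leaving out KO replicate 3 turned the log2 fold change from -0.25 (SE 0.89) to 0.82. Per kilobase Slc16a1 made up 66.5% to 96.0% of the pair in WT and 92.7% to 98.9% in KO. Their chaperone Bsg, from the list of other lactate and pyruvate genes, had 20840 to 34873 in WT and 18951 to 22399 in KO.

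The 4 pyruvate dehydrogenase kinase genes all had overlapping groups. Log2 fold changes were 0.26 (SE 0.48) for Pdk1, -0.06 (SE 0.21) for Pdk2, -0.14 (SE 0.37) for Pdk3 and 0.25 (SE 0.92) for Pdk4. Pdk1, a hypoxia-induced kinase, ran from 425 to 1656 in WT and from 836 to 998 in KO. Pdk4, the kinase induced by fasting and fatty acids, had 557, 1209 and 411 in WT and 459, 307 and 3269 in KO. Its sign turned in 2 of the leave-one-out fits, among them the fit without KO replicate 3 (-0.79). Pdk2 was the steadiest of the 4, at 509 to 647 scaled reads in all 6 libraries.

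The bifunctional enzymes make and break the sugar bisphosphate that activates phosphofructokinase. Pfkfb3, the isoform with the strongest kinase activity, had 930 to 1842 scaled reads in WT and 1359 to 1719 in KO (log2 fold change 0.31, SE 0.28). Pfkfb4 had 334 to 1053 in WT and 466 to 599 in KO (-0.0038, SE 0.43), and Pfkfb2 651 to 1022 and 478 to 1192 (-0.06, SE 0.37). The highest value of Pfkfb3 and of Pfkfb4 was in WT replicate 1 and the lowest in WT replicate 3, so the KO libraries sat inside the WT range for both.

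Among glycogen genes 1 of 6 had groups that did not overlap (background 8.43%). Ppp1r3c (ENSMUSG00000067279, chromosome 19, 36731731 to 36736653, minus strand) encodes PTG, which brings protein phosphatase 1 to glycogen and thereby favours its synthesis. It had 87.7, 256 and 267 scaled reads in WT and 357, 825 and 1083 in KO. Every KO library lay above every WT library, the difference by pair ran from 1.68 to 2.01 on the log2 scale, and Ppp1r3c was the only member above 0 in all 3 pairs. The log2 fold change was 1.90 (SE 0.57, limma adjusted p = 0.999), and in the authors' deposited table it was 1.89 at an FDR of 0.141.

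The enzymes of glycogen turnover had smaller differences. Glycogen synthase Gys1 had 997 to 1868 in WT and 1022 to 1607 in KO (-0.02, SE 0.30), and the phosphorylase Pygb 4691 to 5504 and 5054 to 8282 (0.30, SE 0.24). Gbe1, the branching enzyme, had -0.45 (SE 0.31), and Ugp2, which makes UDP-glucose, -0.32 (SE 0.24), and both were below 0 in all 3 pairs. The log2 ratio of Gys1 to Pygb had overlapping groups, with a difference of -0.32 (exact two-sided permutation p = 0.6). Pgm2 (chromosome 5) had 846 to 986 in WT and 704 to 1463 in KO (0.09, SE 0.29). Its relative Pgm1 (chromosome 4), the main phosphoglucomutase by the names used in these tables and not a member, had 1995, 1867 and 2396 in WT and 1519, 1502 and 1285 in KO, with no overlap (-0.53, SE 0.19, limma adjusted p = 0.999).

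Neighbouring genes, from lists chosen by function, also gave no calls in limma. Of 13 other glucose transport and glycolysis genes with values, 12 were below 0 with a median of -0.19, and 0 passed in limma in either direction. Of all genes tested 49.6% were below 0, the background for this list and for those that follow. Among them Hkdc1, a hexokinase-domain protein, had 209, 364 and 78.3 in WT and 23.5, 43.9 and 25.6 in KO (-2.53, SE 0.79). Tigar, a fructose bisphosphatase that diverts sugar to the pentose phosphate pathway, had 1151, 1005 and 947 in WT and 852, 589 and 520 in KO (-0.69, SE 0.25). The KO libraries lay wholly below the WT libraries for these 2 of the 13 genes (background 4.51%), which were named for their small p in this list.

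Of 18 other lactate and pyruvate genes 12 were below 0 (median -0.14), of 14 other glycogen genes 7 (median -0.01), of 8 pentose phosphate genes 4 (median -0.04) and of 4 glucose-sensing genes 3 (median -0.26), and 0 passed in limma in either direction in each. Got1, the cytosolic aspartate aminotransferase, had -0.53 (SE 0.23) and Pdha1, the catalytic subunit of pyruvate dehydrogenase, 0.00 (SE 0.22). Gaa, the lysosomal glucosidase of glycogen, had -0.62 (SE 0.40). In the pentose phosphate list H6pd had -0.49 (SE 0.31) and Tkt, transketolase, 0.31 (SE 0.23). Txnip, an inhibitor of glucose uptake induced by glucose, had 3978 to 9727 in WT and 2869 to 4818 in KO (-0.64, SE 0.37).

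WT replicate 1 was the highest of the 6 libraries for 11 of 33 members, against 20.8% of all genes tested, and KO replicate 1 was the lowest for 11, against 12.3%. Aldoc and Slc16a3 were the 2 members in which WT replicate 1 exceeded the next library by more than 2-fold, a gap seen in 1.11% of all genes. Pfkl, Pfkfb4 and Pdk1 were also highest there, at 1.94, 1.76 and 1.66 times the next library. KO replicate 3 was the highest library for 7 members, against 22.1% of all genes, and the lowest for 5 (21.8%), among them Pfkp, Slc16a1 and Slc16a3. These counts were made after the values were seen.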

How the data were processed

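Poly(A)-selected, stranded paired-end libraries were made and read on an Illumina NovaSeq, per the labels' protocols. Per the submitters' processing notes, the tools of the authors were STAR, Partek and DESeq2, listed with no roles beside GRCm39 (mm39); the sources used here give no counting settings. Gene starts in the authors' deposited comparison table equal those of GRCm38 (GENCODE M21) for 12341 of 12385 genes, so coordinates are given as GRCm38, with ends 1 base before the deposited stop.

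The deposited per-library values, in both tables, are a scaled signal (estimated reads divided by a library factor) and not counts; 1 read was worth 0.712 to 1.185. The authors' deposited table gives p-values, FDRs, log2 ratios and mean signal per group, per its file headers.

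limma 3.58.1 (R 4.3.3) was fitted to log2(value + 2) for the 12363 genes with at least 10 in at least 3 libraries, with genotype alone, mean trend and robust priors. P-values are two-sided, Benjamini-Hochberg adjusted over all genes, with a threshold of 0.05. The fit was tested on simulated data. Ratios within a library were compared by an exact permutation test. Levels per kilobase use the longest M21 transcript. Near-identical copies are table genes with at least 50% of the 31-base words of their longest transcript, and at least 200 words, in the member's transcripts; summing them was chosen after seeing the data. Same-numbered libraries deviated together (correlations across genes of 0.43, 0.15 and 0.39). The numbers are treated as pairs only in the differences by pair and in the replicate block. The main limma fit and the permutation tests were unpaired. The labels state no pairing, so the pairs rest on the numbers and on these same data. Alternatives covered scaling, pseudocount, filter, table, prior, weights, limma-voom, a replicate block and leave-one-out fits. The members and lists were chosen with earlier results of these data known. Every member was named; of the other lists, up to 4 genes with the smallest p and the 2 highest were eligible.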

Additional observations from a re-analysis of the deposited data

How the results depend on the processing

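Over all genes limma called 0 (447 at an unadjusted p under 0.05), against 30 with library quality weights, 5 with these weights and the replicate block and 0 to 1 without each library in turn (1 gene without KO replicate 1), and 0 in every other setting, limma-voom included (396 at an unadjusted p under 0.05). The weights called 1 member, Slc2a1. The replicate block alone changed no call: 0 members and 0 genes passed (7 members and 7.42% of genes at an unadjusted p under 0.05, smallest adjusted member p 0.209). Of 11 isoform ratios 1 had groups that did not overlap, and 2 to 3 did without each library in turn. By union of exons the WT level of Pkm per kilobase was 13930 in place of 28644. The order of WT levels below Pkm and Aldoa then changed. Pgam1 (5440) stood above Tpi1 (4336) and Ldha (3704), and Pgk1 (2157) above Eno1 (2010) and Gpi1 (1566). Of 33 members 20 kept the sign of their fold change in all 21 settings. Signs turned under total scaling for Pfkfb4 (0.028) and Gys1 (0.0092), under TMM for Pfkfb4 (0.0015), under quantile normalization for Ldha (0.019) and with limma-voom for Pfkfb4 (0.064) and Gys1 (0.0033). With library quality weights they turned for Tpi1 (0.025), Eno1 (0.12), Eno2 (-0.10), Ldha (0.17), Slc16a1 (0.94), Pdk4 (-1.30), Pfkfb2 (0.23), Pfkfb4 (0.19), Gys1 (0.21) and Pgm2 (-0.13), and with weights and block for Eno2 (-0.050), Ldha (0.071), Slc16a1 (0.68), Pdk4 (-0.86), Pfkfb2 (0.20), Gys1 (0.11) and Pgm2 (-0.049). Leaving out each library gave ranges across 0 for Eno2 (-0.52 to 0.55), Ldha (-0.32 to 0.23), Slc16a1 (-0.95 to 0.82), Pdk1 (-0.16 to 0.82), Pdk2 (-0.12 to 0.025), Pdk3 (-0.43 to 0.20), Pdk4 (-0.79 to 0.91), Pfkfb2 (-0.36 to 0.30), Pfkfb4 (-0.34 to 0.49), Gys1 (-0.20 to 0.25) and Pgm2 (-0.19 to 0.33). The cause was not tested. The strictest filter left Aldoc out. The median residual SD across genes, 0.36 in log2 units, is the spread these comparisons face; depth limits Aldoc, with 3 estimated reads in its lowest library.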

Other observations

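The share of each library's scaled reads held by the glycolytic genes' own rows was also summed. The 17 glycolytic enzymes from hexokinase to lactate dehydrogenase made up 0.481%, 0.402% and 0.539% of all scaled reads in the WT cultures and 0.310%, 0.336% and 0.491% in the KO cultures, copies not included. Pkm alone made up 0.190%, 0.162% and 0.211% in WT and 0.108%, 0.115% and 0.170% in KO. Without Pkm the other 16 gave 0.240% to 0.329% in WT and 0.203% to 0.321% in KO. The groups overlapped for all 17, for Pkm alone and for the 16 without it.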
